A study of Mus musculus with 66 samples.

Results

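The 10 genes described here encode 4 cytokines of the interleukin-6 family (Il6, Il11, Osm and Lif), 2 receptor chains of that family (Osmr and Il6st), the cytokine IL-22 (Il22), its receptor chain (Il22ra1), its soluble inhibitor (Il22ra2), and the feedback inhibitor Socs3. The rule that picks them is a list of names and uses no measured value, but the names were chosen with earlier results of these data known. They are 10 of the 30452 genes in the deposited table. All 10 had values. Their levels are given in TPM, a share of all transcripts of a library adjusted for transcript length, so that levels of different genes can be set side by side.

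C57BL/6 mice, bought at 6 weeks of age, were given 3% dextran sulfate sodium (DSS), which damages the colonic lining and brings on colitis, for a planned 6 days. The uninjured controls were 4 mice killed at day 0, and 3 mice were killed at each of days 3, 6, 9, 14 and 20, so that the day 3 mice had not completed the DSS course. Each of the 19 mice gave a mid-colonic, a rectal and an anal section, and the 9 mice of days 9, 14 and 20 also gave a section of squamous neo-epithelium, a squamous lining sampled apart from the rectum and the anus. The muscle layer was removed from every section before RNA was isolated, so the values describe mixed mucosal tissue: more cells of a type and more RNA per cell cannot be told apart.

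Cytokines of the interleukin-6 family bind a receptor complex that contains the shared chain gp130, the product of Il6st, and activate JAK kinases, which phosphorylate the transcription factor STAT3. Oncostatin M, the product of Osm, also needs its own chain OSMR. IL-22 comes mainly from lymphoid cells and acts on epithelium through IL-22RA1 paired with IL-10RB, again through STAT3, in a program of barrier defense and repair in the gut, whereas IL-22RA2 binds IL-22 in solution and blocks it. SOCS3 is induced by STAT3, binds gp130 and the attached JAKs, and so limits the signal.

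The sequences before the start sites of 3 members are shown because their transcripts changed strongly and because short motifs of inflammatory transcription factors could be read in them. Each is the 250 bases before a RefSeq start (GRCm38.p6), written 5′ to 3′ on the gene's strand, with motif matches in capitals. The Socs3 window is chr11:117969367-117969616 on the minus strand, the Il6 window chr5:30012864-30013113 on the plus strand, and the Il11 window chr7:4778142-4778391 on the minus strand, before the start of the transcript Il11-201.
Socs3: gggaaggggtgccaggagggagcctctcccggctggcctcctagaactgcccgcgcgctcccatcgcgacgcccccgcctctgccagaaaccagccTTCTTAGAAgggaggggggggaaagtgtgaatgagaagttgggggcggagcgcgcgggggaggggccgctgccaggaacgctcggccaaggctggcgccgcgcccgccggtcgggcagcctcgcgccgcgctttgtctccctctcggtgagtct
Il6: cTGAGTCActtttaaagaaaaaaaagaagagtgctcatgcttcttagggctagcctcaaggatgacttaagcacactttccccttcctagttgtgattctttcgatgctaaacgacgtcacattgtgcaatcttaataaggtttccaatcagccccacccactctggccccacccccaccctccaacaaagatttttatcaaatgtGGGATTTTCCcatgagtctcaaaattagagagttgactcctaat
Il11: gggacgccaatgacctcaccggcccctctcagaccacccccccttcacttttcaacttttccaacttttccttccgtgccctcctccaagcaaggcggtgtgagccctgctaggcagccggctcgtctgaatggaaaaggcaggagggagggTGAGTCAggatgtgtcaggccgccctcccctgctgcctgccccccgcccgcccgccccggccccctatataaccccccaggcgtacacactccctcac
The capitals in Socs3 mark TTCTTAGAA, a match to the STAT motif TTCNNNGAA, at -154 to -146 from the start. In Il6 they mark TGAGTCA, an AP-1 motif, at -249 to -243, and GGGATTTTCC, an NF-kB motif, at -44 to -35. In Il11 they mark TGAGTCA at -98 to -92. Motifs were searched on both strands, AP-1 as TGAGTCA or its reverse complement TGACTCA and NF-kB as GGGA followed by any base and TTTCC, or the reverse complement of that.

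Among 32851 RefSeq windows of the same length, 7.02% held the STAT motif, 4.46% the AP-1 motif and 0.356% the NF-kB motif. The table gave 9 windows for 8 of the members, with none for Osm and Il22ra2, and the only other match was TGACTCA in the Lif window at -228 to -222. Such a match describes letters in a window and not a bound site. The start-proximal end of the Socs3 window overlaps the first exon of a non-coding Socs3 transcript, and the Il11 window lies in an intron of a longer Il11 transcript.

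The members lie on 7 chromosomes of GRCm38. Il6 is at chr5:30013114-30019981, Il11 at chr7:4772373-4782859, Osm at chr11:4236420-4241026 and Lif beside it at chr11:4257557-4272514. Osmr is at chr15:6813577-6874969, Il6st at chr13:112464070-112510086 and Socs3 at chr11:117966079-117970047. Il22 is at chr10:118204942-118210047, Il22ra2 at chr10:19621998-19634681 and Il22ra1 at chr4:135728172-135752140. Il22 has a closely related copy, Iltifb, which was above 0 in 5 of the 66 samples and reached 0.23 TPM at most, so reads of the pair may have been divided between them. For Socs3, 59.2% of the TPM was assigned to the coding transcript Socs3-201 and 40.8% to a processed transcript without coding sequence.

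No read counts accompany the TPM values, so the depth of each library is unknown and a gene at 0 is described as listed at 0. Between 11268 and 13789 genes reached 1 TPM in a library. The section labels matched summed TPM over marker lists: 6 squamous markers summed to 8718.1 to 14481.5 TPM in day 0 anus and 11469.1 to 25935.7 TPM in neo-epithelium, against 11.9 to 107 TPM in day 0 rectum. Anal sections also held skeletal muscle RNA, with a sum over 5 markers of 1781.1 to 17994.4 TPM at day 0, whereas neo-epithelium had at most 12.3 TPM. Sums over 7 neutrophil markers differed between groups along with several members and are given beside them.

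Differences below are of mean log2(TPM + 1), with the standard error, and every adjusted p is from limma with Benjamini-Hochberg adjustment over all genes tested in that comparison. A gene was tested when the number of samples at 1 TPM or more was no less than the size of the smaller group, and called at an adjusted p under 0.05. All later days of a section were set against the same 4 day 0 mice and so share them. Il6, Il11, Osm and Il22 were under 1 TPM in every day 0 sample, and Osmr in every day 0 sample of rectum and mid-colon. Where these genes were tested against such day 0 samples they passed the filter through the other group alone and had to be higher there, so their calls describe the size of the difference and not its direction.

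Il6, the founding cytokine of the family, was listed at 0 in all 4 rectal samples of day 0 and in 2 of the 3 of day 3. It was at 5.54, 1.07 and 19.7 TPM in the 3 rectal samples of day 6 and at 2.41, 6.05 and 7.66 TPM in those of day 9. The later rectal samples overlapped the controls, with 0, 2.72 and 7.57 TPM at day 14 and 0.528, 0.203 and 0 TPM at day 20. The rise over day 0 was 2.71 ± 0.62 on the log2 scale at day 6 (adjusted p = 0.0085) and 2.57 ± 0.29 at day 9 (adjusted p = 0.000127).

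In the anus Il6 was between 0 and 0.176 TPM at day 0 and at 39.3, 12.6 and 17.6 TPM at day 6, the highest level of the gene in any group. Every anal sample of day 6 lay above every anal sample of the other days, and by day 9 the values were 0.105, 0.183 and 0.558 TPM. The day 6 rise was 4.31 ± 0.35 (adjusted p = 0.000302). Mid-colon stayed low throughout, with a highest value of 0.816 TPM at day 6, and did not pass the filter. In neo-epithelium Il6 was at 2.27, 16.3 and 27.9 TPM at day 9, at 1.26, 0.601 and 1.88 TPM at day 14, and at 0.163, 0.0679 and 0.133 TPM at day 20.

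Il11, a gp130 cytokine made chiefly by stromal cells, had a similar course. In the rectum it was at 0, 0.256, 0 and 0.0335 TPM at day 0, at 3.45, 1.02 and 53.4 TPM at day 6, and at 5.42, 8.99 and 8.9 TPM at day 9. The day 6 mean of 19.3 ± 29.6 TPM (SD, n = 3) rested mostly on mouse 10, while the day 9 samples lay close together. The rise was 2.88 ± 0.92 at day 6 (adjusted p = 0.0305) and 3.01 ± 0.2 at day 9 (adjusted p = 7.84e-06). The day 6 call did not hold in 4 of the 7 fits that left out 1 mouse, each of them without one of the day 0 mice 1 to 4, with adjusted p up to 0.063.

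Anal Il11 was at 0.107, 0.213, 0.151 and 0.286 TPM at day 0 and at 53.5, 23.5 and 22.7 TPM at day 6, and the groups were far apart. That rise was 4.73 ± 0.31 (adjusted p = 0.000187), and by day 9 the anal samples were at 0.24, 0.47 and 1.72 TPM. In neo-epithelium Il11 was at 2.77, 21.2 and 32.6 TPM at day 9 and at 0.0619, 0.697 and 1.08 TPM at day 20. The fibroblast marker sum (8 of 8 genes in the table) was 2278.6 to 3189.3 TPM in day 6 anus against 1733.2 to 2430.3 TPM at day 0, and 804 to 1358.9 TPM in day 9 rectum against 532 to 648 TPM at day 0, and its part in the Il11 values was not tested.

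Osm, the cytokine oncostatin M of myeloid cells, was highest in the rectum of day 9. Its rectal values were 0.0248, 0, 0.175 and 0.111 TPM at day 0, 1.45, 4.12 and 13.5 TPM at day 6, and 7.48, 29 and 41.2 TPM at day 9. At day 14 they were 2.04, 8.98 and 15.4 TPM, still above every control, and at day 20 they were 0.375, 3.72 and 0.045 TPM, overlapping the controls. The rise was 2.4 ± 0.49 at day 6 (adjusted p = 0.00549), 4.36 ± 0.47 at day 9 (adjusted p = 9.69e-05) and 2.88 ± 0.5 at day 14 (adjusted p = 0.0143).

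In the anus Osm was at 0.206, 0, 0.0234 and 0 TPM at day 0 and at 5.37, 15.1 and 1.92 TPM at day 6. All 3 injured samples were higher, with a rise of 2.67 ± 0.49 (adjusted p = 0.00894). The mouse with most anal Osm at day 6 was mouse 9, which also had the largest neutrophil sum, 3893.2 TPM, whereas anal Il6 and Il11 were highest in mouse 8. That sum was already 371 to 1369.3 TPM in day 0 anus, far above day 0 rectum, and which cells gave this anal level was not tested. Mid-colonic Osm reached 1.28, 5.88 and 0.681 TPM at day 9 and did not pass the filter. Rectal neutrophil sums rose over the same days as Osm, from 15.4 to 26.9 TPM at day 0 to 372 to 3571.4 TPM at day 6 and 11127.5 to 13188.9 TPM at day 9. Within day 9 rectum the order of mice was reversed. Mouse 11 had the highest sum and the lowest Osm, 7.48 TPM, and mouse 13 the lowest sum and the highest Osm, 41.2 TPM. In day 9 neo-epithelium mouse 11 again had the highest sum, 19008.3 TPM, and the lowest Osm, 5.44 TPM, but mouse 12 had the lowest sum, 7248.5 TPM, with Osm at 7.31 TPM. In day 9 mid-colon the order of mice was the same for the sum and Osm. Mouse 12 was highest there, with a sum of 2253.9 TPM and Osm at 5.88 TPM. It was also highest for both in day 9 anus, at 3148.2 TPM and 4.39 TPM. All 7 neutrophil genes were in the table, and in day 0 mid-colon Mmp8 was listed at 0 in all 4 samples. The part of neutrophil RNA in the Osm values was not tested.

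Lif, the cytokine leukemia inhibitory factor, which signals through gp130 and LIFR, was the exception among the ligands. It was above 0 in all 66 samples and never exceeded 3.62 TPM. In the rectum it was at 2.61, 0.708, 0.464 and 0.386 TPM at day 0 and at 0.815, 2.38 and 3.62 TPM at day 9, and the groups overlapped. The day 9 difference was 0.7 ± 0.41 (adjusted p = 0.18), and no comparison that tested the gene called it. In the anus, where it did not pass the filter, Lif was at 0.137, 0.22, 0.461 and 0.866 TPM at day 0 and at 1.78, 1.43 and 0.993 TPM at day 6.

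**Figure D1:**
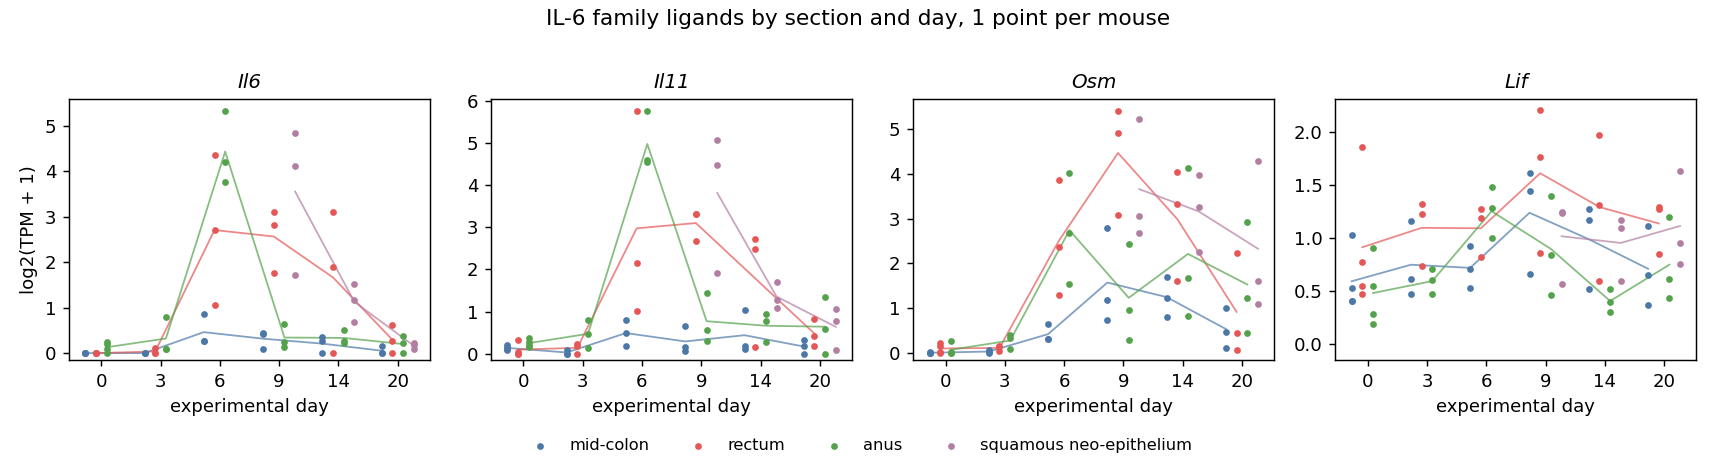
Levels of Il6, Il11, Osm and Lif as log2(TPM + 1) on the y axis by experimental day (evenly spaced) on the x axis, with 1 point per mouse, colors for sections and lines through group means. Anal Il6 and Il11 peak at day 6, at up to 39.3 and 53.5 TPM, rectal Osm peaks at day 9, at up to 41.2 TPM, and Lif stays at or under 3.62 TPM.

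Osmr, the oncostatin M receptor chain, rose in all 3 gut sections. In the rectum it was at 0.697, 0.614, 0.933 and 0.811 TPM at day 0, at 4.21, 2.32 and 5.01 TPM at day 6, and at 10.9, 9.28 and 11.2 TPM at day 9. All 6 samples of those days lay above the controls, and the rise was 1.42 ± 0.21 at day 6 (adjusted p = 0.00152) and 2.7 ± 0.14 at day 9 (adjusted p = 2.81e-06). In mid-colon the day 9 values of 3.07, 4.75 and 3.71 TPM against 0.565, 0.571, 0.764 and 0.48 TPM at day 0 gave a rise of 1.59 ± 0.18 (adjusted p = 0.000109).

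The anus started from a higher Osmr level, at 3.85, 3.3, 5.01 and 4.41 TPM at day 0, which was 1.54 ± 0.16 above the rectum of the same mice (adjusted p = 3.17e-05). In this comparison Osmr passed the filter through the anus alone and had to be higher there. Anal Osmr then held a plateau, at 11.3, 7.5 and 11.3 TPM at day 6, 9.65, 8.64 and 11.8 TPM at day 9, and 10.5, 10.1 and 12.2 TPM at day 14. The rises were 1.09 ± 0.22 (adjusted p = 0.0135), 1.1 ± 0.21 (adjusted p = 0.0191) and 1.22 ± 0.19 (adjusted p = 0.0143). At day 20 the values of 8.28, 13.7 and 8.62 TPM were still above every control, and the difference of 1.1 ± 0.23 missed the threshold (adjusted p = 0.0667). The anal calls were sensitive to single mice: they did not hold in 2, 4 and 3 of 7 fits at days 6, 9 and 14, with adjusted p up to 0.0957.

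Il6st, the shared signal chain gp130, was above 1 TPM in all 66 samples and moved least among the receptor genes that were called higher. Rectal values were 8.36, 8.92, 8.25 and 7.93 TPM at day 0, 13.3, 10.6 and 12.2 TPM at day 6, and 30.9, 11.8 and 41.8 TPM at day 9. No day 6 or day 9 sample overlapped the controls, with rises of 0.47 ± 0.11 (adjusted p = 0.0109) and 1.47 ± 0.35 (adjusted p = 0.00729). Mid-colonic Il6st was 8.38, 13.4 and 11.4 TPM at day 9 against 5.64, 7.13, 7.9 and 4.95 TPM at day 0, a rise of 0.7 ± 0.22 (adjusted p = 0.0269) that was not called without mouse 1, 12 or 13 (adjusted p up to 0.112). Anal Il6st spread from 6.45 to 22 TPM among the 4 controls and was called at no day.

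Socs3, the STAT3-induced inhibitor of gp130 signaling, had the largest difference from day 0 in log2(TPM + 1) among the members tested, at every day in both rectum and mid-colon. This ranking depends on the pseudocount of 1, which holds down the rises of genes that start near 0, such as Il6. In the rectum it was at 1.08, 1.29, 1.41 and 1.74 TPM at day 0 and already at 13.9, 3.04 and 6.98 TPM at day 3, during the DSS course. It reached 29.1, 39.6 and 154 TPM at day 6 and 158, 283 and 375 TPM at day 9, a mean of 272 ± 109 TPM (SD, n = 3) against 1.38 ± 0.277 TPM (SD, n = 4) at day 0. It remained above every control at day 14 (19.5, 78.7 and 152 TPM) and day 20 (10.7, 50.9 and 5.45 TPM).

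The rectal rise of Socs3 was called at every day: 1.72 ± 0.37 at day 3 (adjusted p = 0.0246), 4.6 ± 0.48 at day 6 (adjusted p = 0.000363), 6.76 ± 0.27 at day 9 (adjusted p = 6.44e-07), 4.73 ± 0.58 at day 14 (adjusted p = 0.00591) and 2.73 ± 0.6 at day 20 (adjusted p = 0.0375). The first and the last of these did not hold in 5 of 7 fits that left out 1 mouse, with adjusted p up to 0.0611 and 0.11. The rectal neutrophil sum was 13.1 to 15.4 TPM at day 3 and 15.4 to 26.9 TPM at day 0, and its part in the Socs3 values was not tested.

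In mid-colon Socs3 was at 1.14, 0.795, 2.07 and 2.54 TPM at day 0, at 15.9, 17.9 and 159 TPM at day 6, and at 106, 74.9 and 104 TPM at day 9. All injured samples of those days exceeded the controls, with rises of 3.87 ± 0.68 (adjusted p = 0.00767) and 5.22 ± 0.26 (adjusted p = 3.01e-06). Day 14 values of 5.23, 28.8 and 24 TPM gave 2.71 ± 0.51 (adjusted p = 0.0236), which did not hold in 5 of 7 fits with 1 mouse left out (adjusted p up to 0.123).

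Anal Socs3 was at 3.36, 4.83, 5.49 and 3.33 TPM at day 0, 1.13 ± 0.19 above the rectum of the same mice (adjusted p = 0.00056). It was at 60.4, 60.9 and 66.7 TPM at day 6, a narrow range, and then at 14.8, 25.5 and 26.4 TPM at day 9 and 28.7, 16.8 and 79.2 TPM at day 14. The rises were 3.62 ± 0.2 (adjusted p = 0.000108), 2.13 ± 0.26 (adjusted p = 0.0024) and 2.75 ± 0.46 (adjusted p = 0.0174), the last of which was not called without mouse 2 (adjusted p = 0.0554). The 3 anal samples of day 3 (18, 6.65 and 16.1 TPM) were also above all controls, but the difference of 1.39 ± 0.34 was not called (adjusted p = 0.453). Socs3 in neo-epithelium was at 149, 109 and 279 TPM at day 9, at 79.4, 48.1 and 82.1 TPM at day 14, and at 21.5, 132 and 23.4 TPM at day 20.

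**Figure D2:**
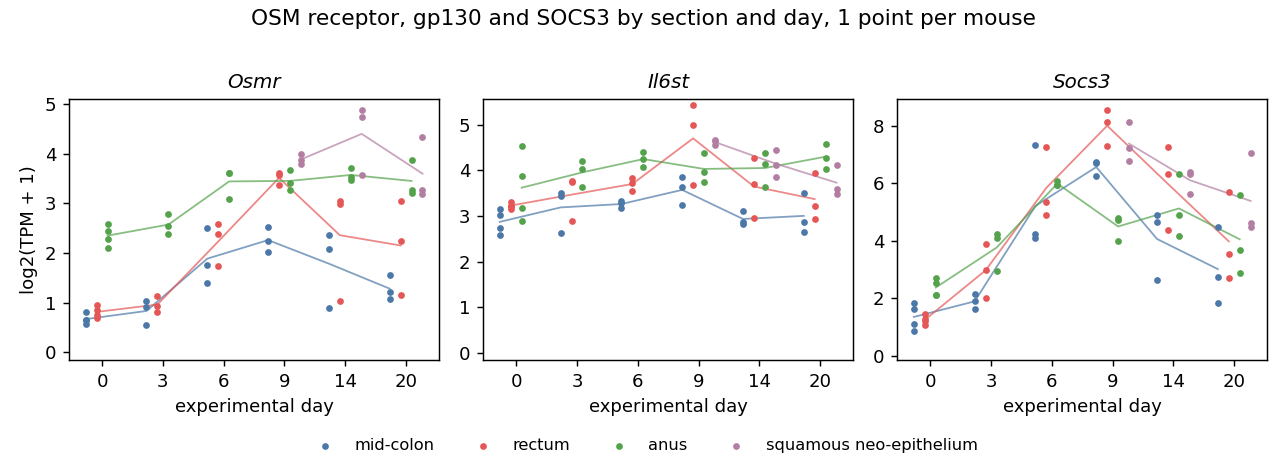
Levels of Osmr, Il6st and Socs3 as log2(TPM + 1) on the y axis by experimental day (evenly spaced) on the x axis, with 1 point per mouse, colors for sections and lines through group means. Rectal Socs3 climbs from 1.38 TPM on average at day 0 to 272 TPM at day 9, and anal Osmr starts above rectal Osmr and stays high.

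Il22 was the rarest transcript of the 10, listed at 0 in 38 of the 66 samples, including every day 0 and day 3 sample. In the rectum it was at 0.538, 0.627 and 0.239 TPM at day 6, at 3.72, 3.62 and 9.45 TPM at day 9, at 0, 0.498 and 2.2 TPM at day 14, and at 0, 0.197 and 0 TPM at day 20. Day 9 stood apart from all other rectal days, and the rise was 2.61 ± 0.28 (adjusted p = 9.34e-05). Mid-colonic Il22 was at 0.773, 0 and 1.27 TPM at day 6 and 0.613, 0.34 and 0.126 TPM at day 9. In the anus Il22 never exceeded 0.211 TPM and was listed at 0 in all 3 day 9 samples. Neo-epithelium had 0.157, 0.853 and 2.31 TPM at day 9 and at most 0.264 TPM thereafter.

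In the marker list for T cells and innate lymphoid cells, the usual sources of IL-22, the summed level of the 8 genes was lower in rectum, at 37.9 to 45.2 TPM at day 9 against 58.9 to 73.7 TPM at day 0. That lower sum rests on 1 gene, since 7 of 8 had all day 9 samples above all day 0 samples. The share of all genes without overlap was not computed, and 33.5% of all genes tested were called higher. Neither the sum nor the count is read as a change in these cells. Cd3g, a chain of the T cell receptor complex, was at 0.454 to 1.28 TPM at day 0 and 4.94 to 6.19 TPM at day 9. Il7r, the interleukin-7 receptor, was at 0.227 to 0.61 TPM and 3.63 to 4.99 TPM. Both are among the 7 higher genes, the values of the 1 lower gene are not given here, and neither gene is read as a change in these cells. The part of lymphoid cells in the Il22 values was not tested.

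Il22ra1, the epithelial receptor chain for IL-22, was the member that fell. In the rectum it was at 42.3, 38.8, 39.2 and 34.6 TPM at day 0 and at 20.8, 23.1 and 22.5 TPM at day 3, with no overlap. It stayed at 21.6, 25.5 and 22.8 TPM at day 6 and was at 35.7, 15.2 and 24.2 TPM at day 9, where mouse 11 reached the range of the controls. The fall was -0.78 ± 0.09 at day 3 (adjusted p = 0.0019), -0.71 ± 0.11 at day 6 (adjusted p = 0.00164) and -0.68 ± 0.24 at day 9 (adjusted p = 0.0412).

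At day 14 rectal Il22ra1 was at 28.6, 27.4 and 18 TPM and at day 20 at 24.2, 16.6 and 28.9 TPM, still under every control, with falls of -0.65 ± 0.17 (adjusted p = 0.0382) and -0.74 ± 0.18 (adjusted p = 0.0472). The calls of days 9, 14 and 20 each failed in 6 of 7 fits with 1 mouse left out, with adjusted p up to 0.137. The 7 markers of columnar epithelium summed to 8001 to 9015.3 TPM in rectum at day 3 and to 7757 to 8805.6 TPM at day 0. At day 9 that sum was lower, at 4670.2 to 5925.4 TPM. Its part in the Il22ra1 values was not tested at any day.

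Mid-colonic Il22ra1 was at 40.3, 38.6, 42.3 and 23.8 TPM at day 0, at 21.1, 22.8 and 17.4 TPM at day 6, and at 13.5, 18.6 and 14.8 TPM at day 9. No injured sample of those days reached the lowest control, and the falls were -0.77 ± 0.21 (adjusted p = 0.039) and -1.14 ± 0.22 (adjusted p = 0.00232). The day 6 call failed in 6 of 7 fits with 1 mouse left out (adjusted p up to 0.155). The columnar epithelial sum of mid-colon was 7485.7 to 9273.5 TPM at day 0, 6169 to 7258 TPM at day 6 and 4532.5 to 5535.8 TPM at day 9, without overlap, and its part in these falls was not tested.

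Anal Il22ra1 was far lower to begin with, at 4.77, 4.05, 5.3 and 16.4 TPM at day 0, -2.4 ± 0.34 against the rectum of the same mice (adjusted p = 0.000228). At day 6 it was at 0.754, 2.53 and 0.886 TPM, a further fall of -1.73 ± 0.45 (adjusted p = 0.0357). That call failed in the 3 fits that left out mouse 8, 9 or 10 (adjusted p up to 0.135). The columnar epithelial sum of the anus was 1060.1 to 3067.7 TPM at day 0 and 122 to 208 TPM at day 6, with Cdx2 listed at 0 in all 3 day 6 samples, and its part in this fall was not tested.

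Il22ra2, the soluble IL-22 inhibitor, was called in no comparison that tested it. Rectal values were 1.36, 0.131, 0.157 and 1.68 TPM at day 0, 0.153, 0.329 and 1.03 TPM at day 9, and 2.67, 4.54 and 0.868 TPM at day 20. The day 20 difference was 0.99 ± 0.45 (adjusted p = 0.186) and the groups overlapped. Anal Il22ra2 was at 1.5, 2.05, 1.76 and 1.1 TPM at day 0 and at 6.12, 2.64 and 1.44 TPM at day 9, the former being the highest value in the series (difference 0.63 ± 0.35, adjusted p = 0.388).

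**Figure D3:**
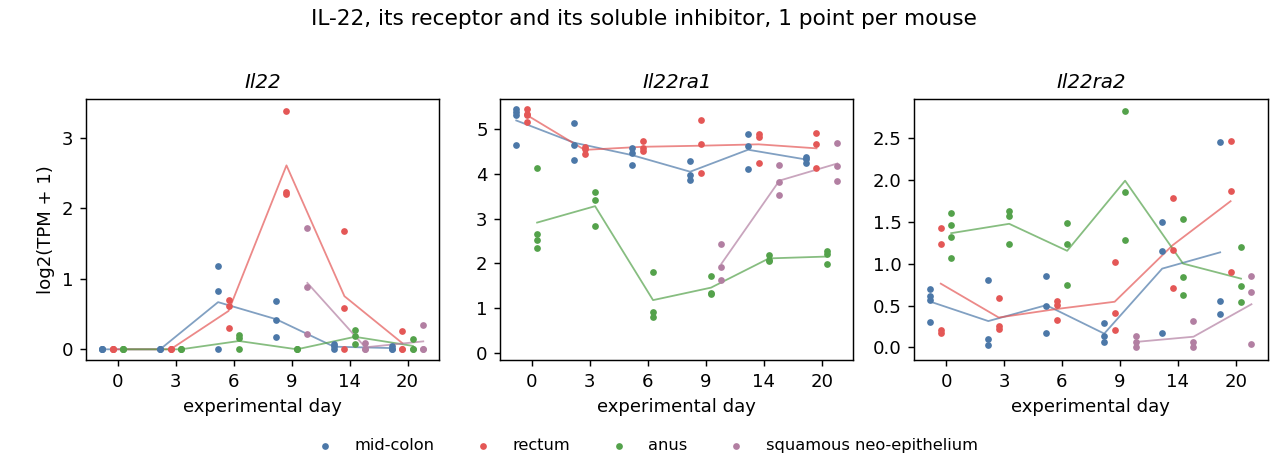
Levels of Il22, Il22ra1 and Il22ra2 as log2(TPM + 1) on the y axis by experimental day (evenly spaced) on the x axis, with 1 point per mouse, colors for sections and lines through group means. Rectal Il22 peaks at day 9, at up to 9.45 TPM, and rectal Il22ra1 is lower from day 3 on, at 20.8 to 23.1 TPM that day against 34.6 to 42.3 TPM at day 0.

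Counted over the 10 genes, the rectum had the most calls. At day 3, 1 of 4 members tested was higher and 1 lower, where 1.5% of all genes tested were higher and 5.13% lower. At day 6, 6 of 8 were higher and 1 lower, beside 11.5% of all genes higher and 37.2% lower (19.5% and 16.7% after median-ratio rescaling of the libraries). Of those 6, Il6, Il11, Osm and Osmr had to be higher, which leaves Il6st and Socs3. At day 9, 7 of 10 were higher and 1 lower, beside 33.5% of all genes higher and 20% lower. Of those 7, Il6, Il11, Osm, Osmr and Il22 had to be higher, which again leaves Il6st and Socs3, so nothing is read from these counts against the shares of all genes. At day 14, 2 of 7 were higher and 1 lower, beside 6.31% of all genes higher and 9.51% lower (11.2% and 9.11% after rescaling), and Osm of those 2 had to be higher. At day 20, 1 of 6 was higher and 1 lower, beside 2.79% of all genes higher and 4.88% lower (5.68% and 7.24% after rescaling). Without mouse 14, 7 members were called at day 14 in place of 3. The smaller group had fewer mice in that fit, so fewer samples at 1 TPM were needed to pass the filter. Il6 and Il11, not tested with all mice, passed it there, and Il6, Il11, Osm and Osmr could only be higher. Mouse 14 was singled out after its values were seen, and nothing is read from this count.

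In mid-colon, 2 of 4 members tested were higher and 1 lower at day 6, beside 4.93% of all genes higher and 9.99% lower (9.6% and 6.66% after rescaling). At day 9, 3 of 5 were higher and 1 lower, beside 26.5% of all genes higher and 17% lower. Osmr, among the genes higher on both days, had to be higher. Socs3 alone of 4 members was called at day 14, higher, beside 2.55% of all genes higher and 1.81% lower (5.31% and 4.52% after rescaling). None of 3 members was called at day 3, where 0.0666% of all genes were higher and 0.308% lower (0.142% and 1% after rescaling). None of 4 was called at day 20, where 0.677% were higher and 0.883% lower (2.2% and 2.3% after rescaling).

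In the anus the calls fell mostly on day 6, with 5 of 8 members tested higher and 1 lower, beside 8.64% of all genes higher and 6.37% lower (8.44% and 10% after rescaling). Of those 5, Il6, Il11 and Osm had to be higher. Osmr and Socs3 were the 2 of 5 higher at day 9, beside 1.46% of all genes higher and 3.63% lower (2.48% and 6.03% after rescaling), and also the 2 of 5 higher at day 14, beside 2.26% higher and 2.01% lower (2.09% and 3.09% after rescaling). No anal member was called at day 3, where 0.022% of all genes were higher and 0.022% lower (0.00738% each after rescaling), nor at day 20, where 1.09% were higher and 0.371% lower (1.59% and 0.899% after rescaling). At day 0, 2 of 5 members tested were higher in anus than in rectum and 1 lower, beside 25.9% of all genes higher and 34.4% lower (35.3% and 29.6% after rescaling). Of those 2, Osmr had to be higher in anus. None of 3 differed between day 0 rectum and mid-colon, where 1.52% of all genes were higher in rectum and 0.274% lower (0.417% and 0.492% after rescaling).

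**Figure D4:**
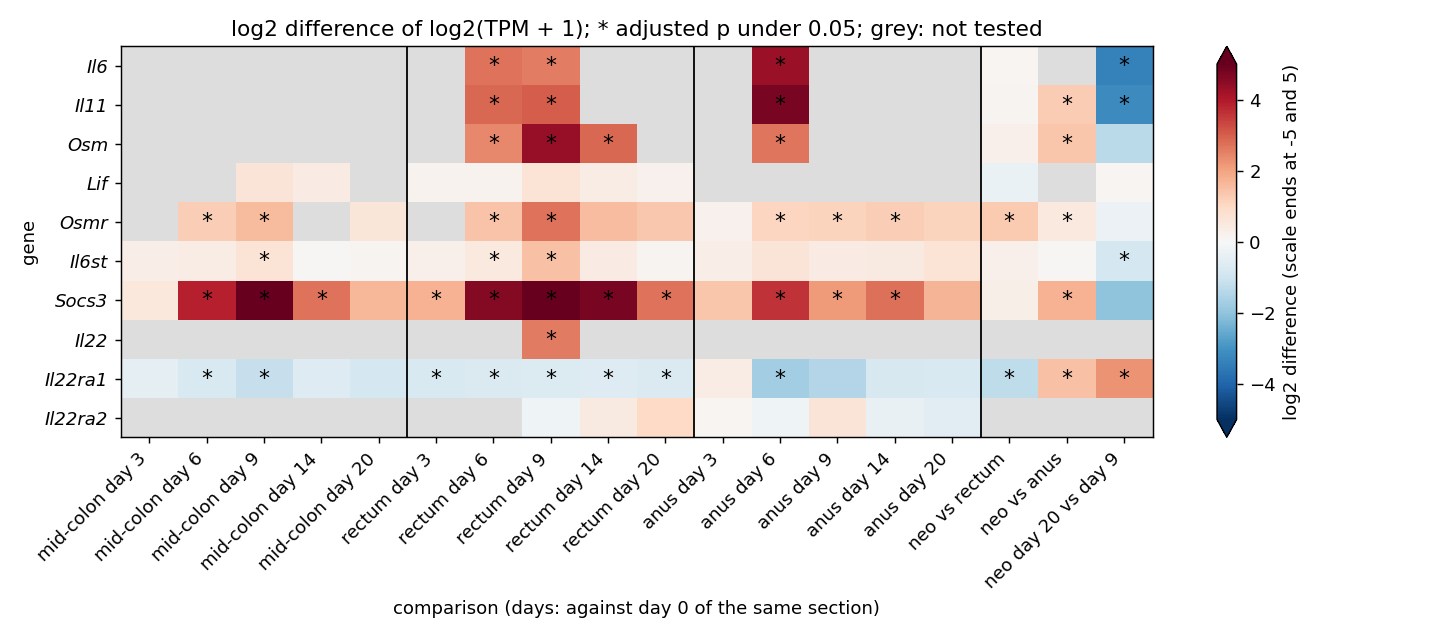
Heat map of the difference in mean log2(TPM + 1) for each member (rows) in each comparison (columns), with stars for an adjusted p under 0.05 and grey where a gene was not tested. Socs3 and Osmr are starred in all 3 gut sections, Il6 and Il11 at rectal days 6 and 9 and anal day 6, and Il22ra1 is blue against day 0 in mid-colon and rectum.

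Whether sections responded differently was tested as an interaction, the change from day 0 in one section minus that in the other. At day 9, 6 of 10 members had a larger change in rectum than in mid-colon, and none a smaller one, where 5.84% of all genes had a larger rectal change and 0.703% a smaller one (6.73% and 1.72% after rescaling). Il6, Il11 and Il22 were at 1 TPM or more only in day 9 rectum among the 4 groups of this fit, so their direction was fixed by the filter. The difference was 2.86 ± 0.27 for Il11 (adjusted p = 7.67e-05), 2.25 ± 0.34 for Il6 (adjusted p = 0.00127) and 2.18 ± 0.33 for Il22 (adjusted p = 0.00143). It was 1.11 ± 0.21 for Osmr (adjusted p = 0.00562), 2.79 ± 0.68 for Osm (adjusted p = 0.0232) and 1.54 ± 0.4 for Socs3 (adjusted p = 0.0305). With a pseudocount of 0.1 in place of 1 the last 3 were not called, and Osm and Socs3 were not called without the filter on low values, nor Socs3 after rescaling. Osm and Socs3 were also not called in 5 of 7 fits that left out 1 mouse (adjusted p up to 0.185), nor was Osmr without mouse 13 (adjusted p = 0.0571).

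Against the anus, 6 of 10 members had a larger day 9 change in rectum, and none a smaller one, beside 15.6% of all genes with a larger change and 4.36% with a smaller one (15.8% and 8.54% after rescaling). The direction of Il6 and Il22 was fixed by the filter here too. The difference was largest for Socs3, at 4.64 ± 0.39 (adjusted p = 4.85e-06), and was 3.2 ± 0.7 for Osm (adjusted p = 0.0052), 2.61 ± 0.33 for Il22 (adjusted p = 7.59e-05) and 2.49 ± 0.35 for Il11 (adjusted p = 0.000195). It was 2.35 ± 0.36 for Il6 (adjusted p = 0.000375) and 1.6 ± 0.23 for Osmr (adjusted p = 0.000264). These calls held in all 7 fits that left out 1 mouse.

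At day 6 the order of rectum and anus was the other way round for Il6 and Il11, but not beyond the spread among mice. The rectal change minus the anal change was -1.6 ± 0.78 for Il6 (adjusted p = 0.162) and -1.85 ± 1.08 for Il11 (adjusted p = 0.241). None of 9 members tested was called there, where 6.16% of all genes had a larger rectal change and 15.4% a smaller one (12.2% and 7.17% after rescaling). Against mid-colon at day 6, none of 8 members tested was called by limma, nor was any gene (0% of all genes); the difference was 2.25 ± 0.71 for Il6 (adjusted p = 0.56) and 1.98 ± 0.56 for Osm (adjusted p = 0.419).

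The neo-epithelium was compared with the rectum of the same 9 mice, with day as a covariate. Of 8 members tested, 1 was higher and 1 lower, beside 20.9% of all genes higher and 22% lower. Osmr was at 15, 12.8 and 13.6 TPM at day 9, 10.9, 25.7 and 28.6 TPM at day 14, and 8.14, 19.1 and 8.69 TPM at day 20, and was higher than in the rectum in 9 of 9 mice. The difference was 1.29 ± 0.34 (adjusted p = 0.00524). Il22ra1 was at 4.4, 2.77 and 2.1 TPM at day 9, 17.3, 10.5 and 13.1 TPM at day 14, and 17, 13.2 and 24.7 TPM at day 20. It was lower than in the rectum in 9 of 9 mice, by -1.26 ± 0.3 (adjusted p = 0.00245). Il22ra2, under the filter here, was also lower in 9 of 9 mice, at 0 to 0.803 TPM in neo-epithelium, and without the filter on low values its difference was -0.94 ± 0.21 (adjusted p = 0.00294).

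Il6, Il11, Osm and Socs3 did not differ detectably between neo-epithelium and rectum. Their differences were 0.11 ± 0.43, 0.15 ± 0.4, 0.26 ± 0.56 and 0.3 ± 0.5, with adjusted p from 0.656 to 0.862. For Osm and Socs3 the sign depended on the day, with a mean difference within mice of -0.81 and -0.63 at day 9, when all 3 mice were lower for either gene. At day 20 both means were 1.41 and all 3 mice were higher, and that change over days was not tested.

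Against the anus of the same mice, 5 of 6 members tested were higher in neo-epithelium and none lower, beside 40.1% of all genes higher and 19.7% lower (29.2% and 28.1% after rescaling). Il22ra1 was higher in 9 of 9 mice by 1.45 ± 0.21 (adjusted p = 1.95e-05), and Socs3 in 9 of 9 mice by 1.73 ± 0.45 (adjusted p = 0.00334). Il11 was higher by 1.25 ± 0.46 (adjusted p = 0.0269), with a mean difference of 3.05 at day 9 and none at day 20. It was not called without mouse 12 (adjusted p = 0.0944), and without mouse 13 or mouse 19 it did not pass the filter. Osm was higher by 1.39 ± 0.57 (adjusted p = 0.046) and Osmr by 0.47 ± 0.19 (adjusted p = 0.0433). Neither was called after median-ratio rescaling, nor in 6 and 5 of the 9 fits that left out 1 mouse (adjusted p up to 0.134). Il22ra2, under the filter, was lower in neo-epithelium in 7 of 9 mice, and without the filter its difference was -1.04 ± 0.25 (adjusted p = 0.0034). The sections also differed in skeletal muscle RNA, as given above, and its part in these differences was not tested.

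Within the neo-epithelium, Il6, Il11 and Il6st fell from day 9 to day 20 and Il22ra1 rose, 4 of 8 members tested, beside 10.1% of all genes higher at day 20 and 16.1% lower (14.4% and 11.5% after rescaling). Il6 passed the filter through day 9 alone and had to be lower at day 20. The change was -3.39 ± 0.75 for Il6 (adjusted p = 0.0203), -3.18 ± 0.79 for Il11 (adjusted p = 0.0292), -0.89 ± 0.2 for Il6st (adjusted p = 0.0207) and 2.24 ± 0.3 for Il22ra1 (adjusted p = 0.0049). Of these, the Il22ra1 call held in all 6 fits that left out 1 mouse, and each of the others failed in at least 4 of 6, with adjusted p up to 0.0987. Over the same days the fibroblast sum went from 2107 to 3123.4 TPM at day 9 to 520 to 1040.1 TPM at day 20, and the columnar epithelial sum from 253 to 901 TPM to 2289.2 to 4333.7 TPM. Their part in these changes was not tested. Socs3 differed by -2 ± 0.72 (adjusted p = 0.0841).

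In the rectum 5 of 10 members were lower at day 20 than at day 9 and none higher, beside 5.95% of all genes higher and 14.8% lower (11.4% and 13.3% after rescaling). Of those 5, Il6, Il11 and Il22 passed the filter through day 9 alone and had to be lower. The fall was -4.03 ± 0.7 for Socs3 (adjusted p = 0.00933), -3.54 ± 0.72 for Osm (adjusted p = 0.0147), -2.63 ± 0.29 for Il11 (adjusted p = 0.00257), -2.53 ± 0.35 for Il22 (adjusted p = 0.0049) and -2.28 ± 0.38 for Il6 (adjusted p = 0.00821). Socs3 was not called without mouse 13 (adjusted p = 0.0518), nor Osm without mouse 12 or mouse 13 (adjusted p up to 0.0665). Over the same days the rectal neutrophil sum went from 11127.5 to 13188.9 TPM to 53.5 to 698 TPM, and the sum over 8 macrophage and monocyte markers from 979 to 1214.8 TPM to 156 to 272 TPM, and their part in these falls was not tested. Il22ra1 did not differ detectably between these days, with a difference of -0.06 ± 0.34 (adjusted p = 0.922). In mid-colon Socs3 fell by 3.56 ± 0.56 (adjusted p = 0.00389) and Osmr by 0.98 ± 0.24 (adjusted p = 0.0232), 2 of 6 members tested, beside 6.08% of all genes higher and 14.5% lower (9.79% and 12.6% after rescaling). The Osmr call failed in 4 of 6 fits that left out 1 mouse, with adjusted p up to 0.113. The neutrophil sum of mid-colon was 510 to 2253.9 TPM at day 9 and 26.5 to 258 TPM at day 20, and its part was not tested.

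Single mice stood out in several members at once. At day 6 mouse 10 had the highest rectal Il6, Il11, Osm, Osmr and Socs3, together with the highest rectal neutrophil sum of 3571.4 TPM against 372 and 706 TPM in the other 2 mice. At day 14 mouse 14 had the lowest rectal Il6, Il11, Osm, Lif, Osmr, Il6st and Socs3, with a neutrophil sum of 261 TPM against 1624.1 and 4725 TPM. At day 20 mouse 18 had the highest Osm and Socs3 in all 4 sections, and the highest neutrophil sum in each, such as 698 TPM in rectum and 5674.8 TPM in neo-epithelium. These mice were singled out after their values were seen.

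Genes around the members were described by lists, read by counts and medians. The lists were chosen with earlier results of these data known, so their counts are no independent support. The same filter applied to them. A listed gene under 1 TPM in every day 0 sample of a section was tested there only where it had to be higher. How many listed genes this covers was not counted, so the counts and medians are a description beside the values of all genes. In day 9 rectum, 12 of 15 STAT3 feedback and immediate target genes were higher and 2 lower, with a median difference of 1.55, beside 33.5% of all genes higher and 20% lower and a median of 0.13 over all genes tested. The largest changes were those of Timp1, an inhibitor of metalloproteinases (4.96 ± 0.16, adjusted p = 2.75e-07), Lrg1, a secreted glycoprotein (4.73 ± 0.17, adjusted p = 4.36e-07), and Icam1, a leukocyte adhesion molecule (4.19 ± 0.26, adjusted p = 6.24e-06). Of 16 genes listed for the epithelial response to IL-22 or IL-6, 15 were tested, 12 higher and 1 lower, with a median of 3.07. The cells that gave these transcripts are not known from mixed tissue. Saa3, an acute-phase protein, rose by 10.68 ± 0.28 (adjusted p = 7.73e-08), Lcn2, which binds bacterial siderophores, by 7.46 ± 0.21 (adjusted p = 1.15e-07) and Nos2, the inducible nitric oxide synthase, by 6.58 ± 0.7 (adjusted p = 8.75e-05). The rectal neutrophil sum was 15.4 to 26.9 TPM at day 0 and 11127.5 to 13188.9 TPM at day 9. The macrophage and monocyte sum was 97.7 to 114 TPM and 979 to 1214.8 TPM. Their part in the values of both lists was not tested.

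Components of the pathway are set against the same shares and median of all genes in day 9 rectum. Of 8 JAK-STAT core genes, 5 were higher and none lower, with a median of 0.52: Stat3 rose by 0.93 ± 0.14 (adjusted p = 0.000694) and Stat5a by 0.8 ± 0.13 (adjusted p = 0.000966). Of 12 other IL-6 family genes 5 were tested, 3 higher and 2 lower, with a median of 0.5. Ebi3, a subunit of IL-27, rose by 2.22 ± 0.23 (adjusted p = 7.52e-05), Il6ra, the IL-6 receptor, rose by 0.88 ± 0.14 (adjusted p = 0.000794), and Lifr, the LIF receptor, changed by -0.88 ± 0.19 (adjusted p = 0.00446). Of 15 genes of the IL-10 family and upstream of IL-22, 7 were tested, 3 higher and 2 lower, with a median of -0.15, shares near those of all genes. Il10ra rose by 3.01 ± 0.36 (adjusted p = 0.000188) and Il10 by 2.87 ± 0.15 (adjusted p = 2.54e-06).

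In the anus at day 6, where 8.64% of all genes were higher and 6.37% lower, STAT3 feedback and target genes were higher in 5 of 15 and lower in none (median 0.67, beside 0.07 over all genes tested), led by Timp1 (3.89 ± 0.22, adjusted p = 0.000108), Lrg1 (2.12 ± 0.4, adjusted p = 0.0104) and Cebpd, a transcription factor (2.05 ± 0.32, adjusted p = 0.00465). The epithelial response genes divided, with 5 of 13 tested higher and 5 lower and a median of -0.37. Saa3 rose by 8.64 ± 1.06 (adjusted p = 0.00142), while Dmbt1, a mucosal scavenger protein, changed by -6.24 ± 0.61 (adjusted p = 0.000578) and Pigr, which carries immunoglobulin A across epithelium, by -6.24 ± 0.44 (adjusted p = 0.000211). The columnar epithelial sum was lower at day 6 as given above. The neutrophil sum was 371 to 1369.3 TPM at day 0 and 1370.1 to 3893.2 TPM at day 6, and the part of either sum was not tested. Among other IL-6 family genes, 2 of 8 were higher and 1 lower: Clcf1, a cytokine of the family, rose by 0.91 ± 0.2 (adjusted p = 0.0184), and Cntfr, a receptor chain of the family, changed by -0.91 ± 0.25 (adjusted p = 0.042).

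In mid-colon at day 9, where 26.5% of all genes were higher and 17% lower, the epithelial response genes were higher in 13 of 16 and lower in none (median 2.78, beside 0.09 over all genes tested). Saa3 rose by 5.24 ± 0.29 (adjusted p = 4.03e-06), Nos2 by 4.78 ± 0.48 (adjusted p = 5.13e-05) and Cxcl5, a neutrophil-attracting chemokine, by 4.52 ± 0.28 (adjusted p = 5.72e-06). STAT3 feedback and target genes were mixed there, with 6 of 15 higher and 5 lower. The neutrophil sum of mid-colon was 8.66 to 18.2 TPM at day 0 and 510 to 2253.9 TPM at day 9, and its part in both lists was not tested. The difference between sections in the epithelial list was tested gene by gene: the day 9 change was larger in rectum than in anus for 14 of 16 genes, beside 15.6% of all genes, and larger than in mid-colon for 3 of 16, beside 5.84% of all genes. In the anus itself 2 of 14 genes tested were higher at day 9 and 5 lower, beside 1.46% of all genes higher and 3.63% lower. The columnar epithelial sum of the anus was 1060.1 to 3067.7 TPM at day 0 and 146 to 183 TPM at day 9, and its part was not tested.

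The patterns most like those of 5 members were sought over the 21 group means, among 14040 genes, as a description without a test. Osm was followed most closely by Clec4e (r = 0.984), Trem1 (r = 0.984) and Fgr (r = 0.983), genes known from myeloid cells. Il11 was most like Acat3 (r = 0.96), Adamts4 (r = 0.95), a matrix protease, and Cemip (r = 0.936), which takes part in hyaluronan breakdown. Socs3 was most like Plaur, the urokinase receptor (r = 0.965), Lrg1 (r = 0.955) and Wfdc17 (r = 0.945). Il22 was most like Trim30c (r = 0.951), Olr1 (r = 0.905) and Gpr31b (r = 0.885), and Il22ra2, with weaker matches, like Chst3 (r = 0.86), Sag (r = 0.805) and Glrb (r = 0.8). The group means share mice across sections, and low transcripts such as Il22 give a pattern that rests on few samples.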

How the data were processed

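Total RNA of 66 dissected gut sections from 19 mice was sequenced as stranded mRNA libraries with single-end reads of 75 bp, per the labels' protocols. CASAVA, kallisto and the build mm10 are named per the submitters' processing notes, without versions; the transcript index is not given in the sources used here. The authors deposited 1 table of transcript-level TPM, a length-adjusted signal scaled to the same total per library. The deposited signal columns summed to 1027330 to 1062209 because transcripts with several identifiers were repeated: of 126860 rows, 37344 had no values and 1318 were repeats, which left 88198 transcripts. TPM was summed per gene (30452 genes), and 1284 transcripts without a gene identifier (0.563% to 2.83% of TPM) were left out. Without counts, depth and counting intervals are unknown.

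Groups followed section and day in the labels (21 groups). Models on log2(TPM + 1) were fitted with limma 3.58.1 (R 4.3.3; moderated statistics with a mean-variance trend) over all genes for which the samples at 1 TPM or more numbered no fewer than the smaller group. There were 26 comparisons, and the threshold was a Benjamini-Hochberg adjusted p of 0.05. Each mouse is 1 replicate. Fitting code was tested on simulated data. Alternatives were a pseudocount of 0.1, no filter, median-ratio rescaling, each mouse left out, and, between sections, the mouse as a block. The mouse identifiers in the labels pair the sections; the mean r across genes of same-mouse deviations was 0.291 for rectum and mid-colon, 0.25 for neo-epithelium and rectum, 0.153 for neo-epithelium and anus, and 0.099 for anus and rectum.

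The members, gene lists and marker lists were chosen with earlier results of these data known. Named genes were the 10 members, up to 3 genes per pathway list and comparison with the largest called change without overlap between groups, and the 3 genes most like each of 5 members (at least 1 TPM in 3 samples). A few genes that this rule names are not reported here, and the counts over the lists include them. Coordinates are from GENCODE M21 on GRCm38, the assembly that mm10 denotes, and promoter sequences from RefSeq. Other work used Python 3.11.15, numpy 2.4.6, pandas 2.3.3 and matplotlib 3.10.9.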

Additional observations from a re-analysis of the deposited data

Results flagged for a closer look

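Among the uninjured controls, 25 sets of 4 samples with values above 0 were examined for a single sample far from the other 3, and 4 were found. Chance gives about 1 in 20 for normally distributed values. That rate does not hold for the Il11 and Osm sets below, which include samples listed at 0, so no excess is read from the count. The measure is the gap from the end sample to its nearest neighbor, divided by the range, on the log2(TPM + 1) scale, called far when above Dixon's 95% critical value. It was 0.855 for Il11 in day 0 rectum, where mouse 2 had 0.256 TPM. It was 1 for Osm in day 0 mid-colon, where 0.0227 TPM in mouse 3 was the only value above 0, and 0.877 for Osm in day 0 anus, where mouse 1 had 0.206 TPM. It was 0.839 for Il22ra1 in day 0 mid-colon, where mouse 4 had 23.8 TPM against 38.6 to 42.3 TPM in the others.

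The day 9 change differed between sections for 6 members by the interaction test. Rectum exceeded mid-colon by 2.25 for Il6, 2.86 for Il11, 2.79 for Osm, 1.11 for Osmr, 2.18 for Il22 and 1.54 for Socs3 on the log2 scale. Rectum exceeded anus by 2.35 for Il6, 2.49 for Il11, 3.2 for Osm, 1.6 for Osmr, 2.61 for Il22 and 4.64 for Socs3. The standard errors and adjusted p-values stand beside these comparisons in the report.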

How the results depend on the processing

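No called difference changed sign under the alternatives run. Counts of members called moved by more than 1.5 times in these cases. Without the filter on low values the count was 7 in place of 4 for mid-colon at day 9, 1 in place of 2 for rectum at day 3, 0 in place of 2 for rectum at day 20, 1 in place of 2 for anus at day 14, 1 in place of 0 for the day 6 response of rectum against anus, and 1 in place of 2 for mid-colon at day 20 against day 9. Median-ratio rescaling gave 1 in place of 0 for mid-colon at day 20, for anus at day 20 and for the day 6 response of rectum against anus, and 3 in place of 5 for neo-epithelium against anus. A pseudocount of 0.1 gave 3 in place of 6 for the day 9 response of rectum against mid-colon. Leaving out each mouse in turn gave 0 to 3 for mid-colon at day 14 (1 with all mice), 0 to 1 for mid-colon at day 20 (0), 1 to 2 for rectum at day 3 (2), 2 to 7 for rectum at day 14 (3), 0 to 4 for rectum at day 20 (2), 1 to 3 for anus at day 9 (2), 0 to 2 for anus at day 14 (2), 2 to 5 for neo-epithelium against anus (5), 3 to 6 for the day 9 response of rectum against mid-colon (6), 0 to 2 for the day 6 response of rectum against anus (0), 1 to 2 for mid-colon at day 20 against day 9 (2), 3 to 6 for rectum at day 20 against day 9 (5), and 1 to 5 for neo-epithelium at day 20 against day 9 (4). Each such fit has fewer mice, and where the smaller group lost a mouse the filter also needed fewer samples at 1 TPM. Dropping the filter raises the number of genes tested, and other causes were not tested. Of single-gene calls, 18 were lost without the filter, 3 with a pseudocount of 0.1 and 3 with rescaling.

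With the mouse as a replicate block none of the 59 member results between sections changed its call; Osmr in neo-epithelium against rectum had an adjusted p of 0.00137 and Il22ra1 of 0.0077. Rescaling moved the median of all genes by over 0.1 in several comparisons, such as from -0.27 to -0.02 for rectum at day 6, where the counts of members called higher and lower were the same. TPM is relative, depth is unknown, and 3 mice per day limit every test, most of all for Il6, Il11, Osm and Il22 near 0.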

Other observations

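Without the filter on low values, some members not tested in the report passed the threshold at low levels. In mid-colon at day 9, Osm differed from day 0 by 1.57 (adjusted p = 0.0393), Il22 by 0.43 (adjusted p = 0.0279), Il6 by 0.32 (adjusted p = 0.0311) and Il22ra2 by -0.38 (adjusted p = 0.035). In rectum at day 6, Il22 differed by 0.54 (adjusted p = 0.0076). Il6 in neo-epithelium differed from the anus of the same mice by 1.32 (adjusted p = 0.029), with a mean within-mouse difference of 3.22 at day 9 and -0.03 at day 20. These values are from limma with Benjamini-Hochberg adjustment over all genes and are given as values only.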
